A study of Mus musculus with 6 samples.

Results

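The 39 Hox genes of the mouse were followed gene by gene in 6 newborn hemibrain libraries, by cluster (A, B, C and D) and by paralog number (1 to 13). The members are all symbols of the deposited count table that name a gene of these clusters, 39 of 24391 symbols. They comprise 11 genes of cluster A, 10 of cluster B, 9 of cluster C and 9 of cluster D. The set was chosen because hindbrain genes, Hox genes among them, had already been seen to be low in the null libraries of these data. Differences between the genotypes in Hox level are therefore given as descriptions, with no test.

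Hox genes encode homeodomain transcription factors that give cells along the head-to-tail axis their regional identity. Within each cluster the genes lie in the order in which they are used along the body, so that genes of low paralog number reach forward into the hindbrain and genes of high paralog number stay in the spinal cord, trunk and tail. Forebrain and midbrain normally lack Hox expression, and neurons of the hindbrain and cord keep their Hox code after birth.

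RNA was measured by RNA-seq in frozen hemibrains taken at postnatal day 0. In the null group (n = 3, pups 2, 4 and 10) the genotype is labelled Celf2 -/-, and in the heterozygous group (n = 3, pups 6, 7 and 11) it is labelled Celf2 +/-, so the controls also carry a mutant allele of Celf2, which encodes an RNA-binding protein, and no wild-type pup was compared. Libraries are named below by genotype label and pup number. The labels give no sex, litter, batch, strain or design of the mutant allele, and no plane of dissection at the caudal end of the hemibrain.

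Library totals lay between 28831997 and 36531980 counts. Levels are given as CPM, the counts of a gene divided by the library's total and scaled to a common depth, with totals adjusted by the trimmed mean of M-values (TMM) method. A gene was called detected at 3 counts, which is between 0.0807 CPM in heterozygous 6 and 0.118 CPM in null 2. Celf2 itself had 458, 403 and 362 CPM in heterozygous 6, 7 and 11 and 448, 390 and 331 CPM in null 2, 4 and 10 (log2 difference -0.07, SE 0.12, edgeR quasi-likelihood test, adjusted p = 0.955). The counts cover the whole gene and the deleted part is not named, so this level does not check the genotype labels, and directions below are between libraries labelled null and heterozygous. Forebrain genes were abundant in all libraries, with Neurod2 at 177 to 256 CPM. Reads of Rn45s, the precursor of ribosomal RNA, made up 11.8% of null 2 and 0.194% to 1.27% of the other libraries. Heterozygous 7 stood apart from the other 5 libraries in Hox level, and values that rest on it are given with and without it.

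Hox transcripts were found in every hemibrain, at very unequal levels. The 39 genes together had 816, 6064 and 387 counts in heterozygous 6, 7 and 11 and 101, 263 and 115 counts in null 2, 4 and 10. As summed CPM these were 21.9, 204 and 11.0 in the heterozygous libraries and 3.98, 7.79 and 3.91 in the null libraries. Heterozygous 7 alone held 80.8% of the CPM summed over the 6 libraries, 9.30 times the level of heterozygous 6. All 3 null libraries lay below all 3 heterozygous libraries, and heterozygous 11 exceeded null 4 by 1.41 times. The group means were 79.0 ± 108 CPM (SD, n = 3) in heterozygous and 5.23 ± 2.22 CPM (SD, n = 3) in null libraries, a ratio of 15.1, which was 3.15 without heterozygous 7. In these bulk libraries fewer cells of a type and less RNA per cell cannot be told apart. Genes of hindbrain neurons outside the clusters summed to 44.3 to 76.9 CPM in the heterozygous and 11.1 to 39.6 CPM in the null libraries, and the part of the amount of caudal tissue per hemibrain in the Hox levels was not tested.

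Reads fell on 27 of the 39 genes, and 12 genes had 0 counts in all 6 libraries. The 12 were Hoxa10, Hoxa11, Hoxa13, Hoxb1, Hoxc8, Hoxc10, Hoxc11, Hoxc12, Hoxd9, Hoxd10, Hoxd11 and Hoxd12. A count of 0 allows up to 0.0807 CPM in heterozygous 6, the library of greatest adjusted total, and 0.118 CPM in null 2, that of the smallest. All but Hoxb1 and Hoxc8 belong to paralog groups 9 to 13. Hoxb1, the member of group 1 that marks a single segment of the embryonic hindbrain, was thus not detectable at this depth. Of the remaining members, 14 averaged at least 10 counts per library and are described in turn below, and 13 had fewer reads. Only 8 passed the expression filter of the genome-wide fit (Hoxa2, Hoxa3, Hoxa4, Hoxa5, Hoxb2, Hoxb3, Hoxc4 and Hoxd3), so fitted fold changes exist for these alone.

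**Figure D1:**
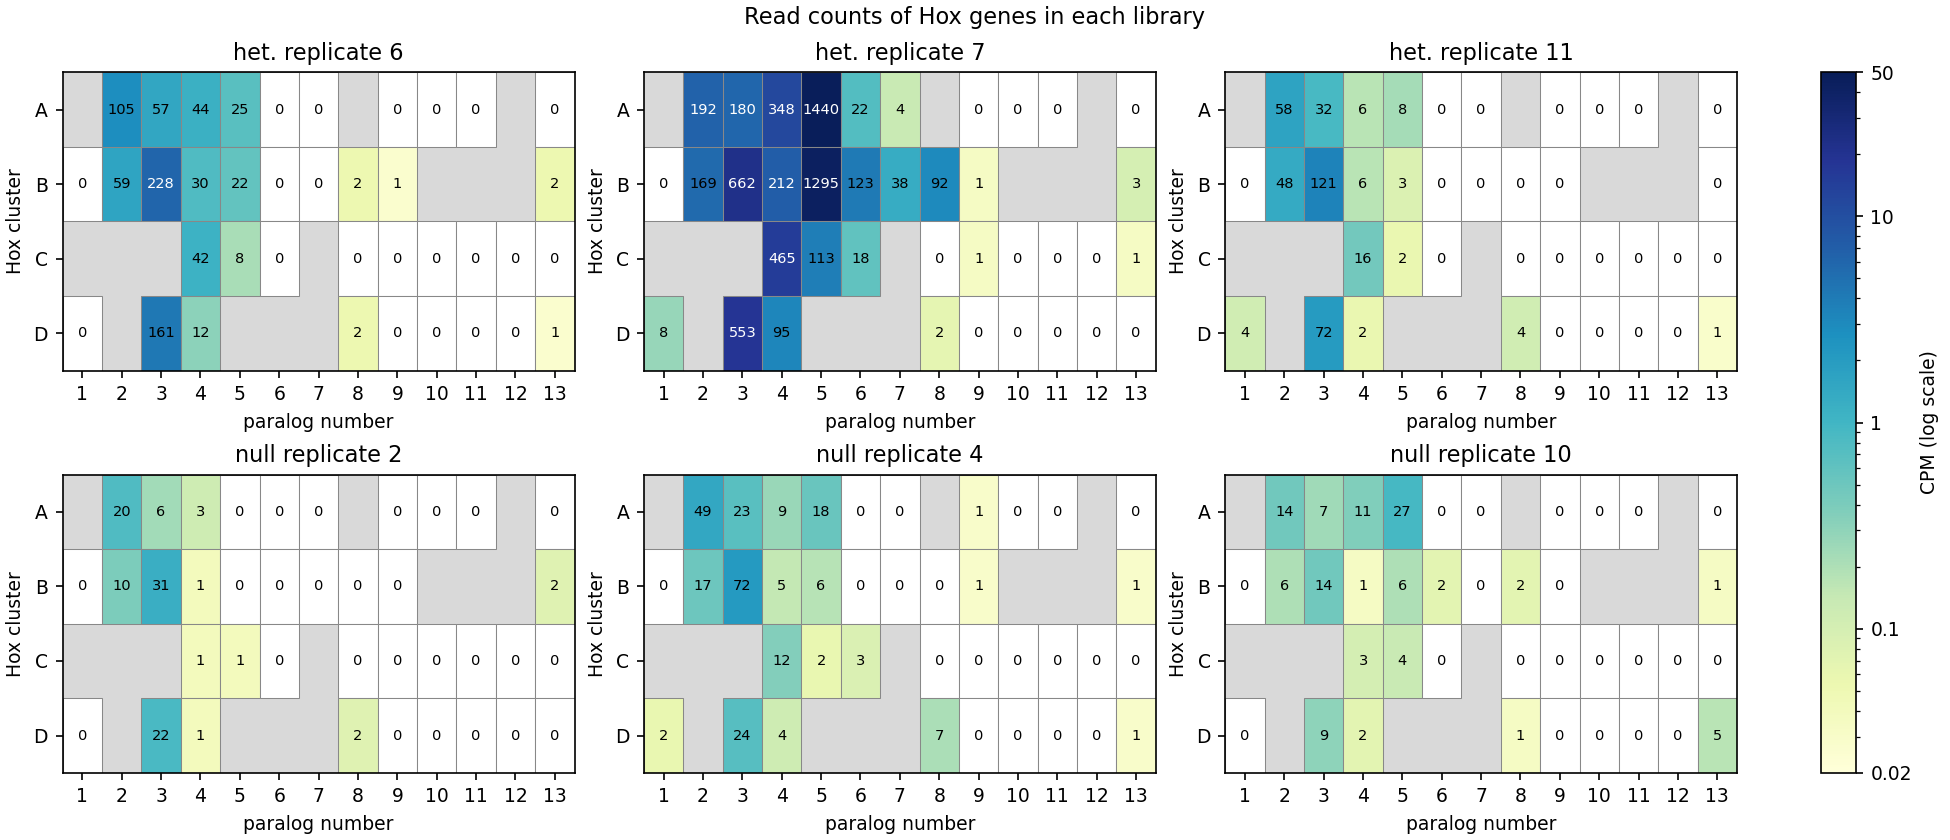
Read counts (numbers in the cells) and CPM (colour, log scale from 0.02 to 50) of Hox genes in each library, with clusters A to D as rows and paralog numbers 1 to 13 as columns; grey cells are positions with no gene or with values not shown, and white cells have 0 counts. Counts crowd into paralog numbers 2 to 5 in 5 libraries, and in heterozygous 7 they are higher and run on to number 8 in cluster B.

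Paralog group 2 holds the Hox genes that reach farthest forward in the hindbrain. Hoxa2, which patterns the anterior hindbrain and the neural crest that leaves it, was at 2.82, 6.46 and 1.65 CPM in heterozygous 6, 7 and 11 and at 0.788, 1.45 and 0.476 CPM in null 2, 4 and 10. It had at least 14 counts in every library. The groups did not overlap, but the lowest heterozygous library and the highest null library lay close together. All null libraries lay below all heterozygous libraries for 6.47% of the 15925 genes tested in the genome, and since the Hox genes were chosen on this contrast nothing is read from how many of them show it. The group means were 3.64 ± 2.51 and 0.905 ± 0.498 CPM (SD, n = 3), and the fitted log2 fold change, null minus heterozygous, was -1.97 (SE 0.56). Without heterozygous 7 it was -1.29. Hoxb2, its paralog in cluster B, was at 1.59, 5.69 and 1.37 CPM in heterozygous 6, 7 and 11 and at 0.394, 0.504 and 0.204 CPM in null 2, 4 and 10. Its fold change was -2.93 (SE 0.65) and -1.99 without heterozygous 7, and the lowest heterozygous library stood well above the highest null library.

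Paralog group 3, used from the caudal hindbrain backwards, held the Hox gene with the most reads in 4 of the 6 libraries. That gene, Hoxb3, had 228, 662 and 121 counts in heterozygous 6, 7 and 11 and 31, 72 and 14 counts in null 2, 4 and 10, or 6.13, 22.3 and 3.45 CPM against 1.22, 2.13 and 0.476 CPM. Hoxd3 followed with 161, 553 and 72 counts against 22, 24 and 9 counts, or 4.33, 18.6 and 2.05 CPM against 0.866, 0.711 and 0.306 CPM. Hoxa3, which is also needed for the thymus and parathyroid, was lower at 1.53, 6.06 and 0.911 CPM against 0.236, 0.681 and 0.238 CPM. For all 3 genes each null library lay below each heterozygous library. Fitted log2 fold changes were -3.02 (SE 0.98) for Hoxb3, -3.72 (SE 1.09) for Hoxd3 and -2.80 (SE 0.85) for Hoxa3. Without heterozygous 7 they were -1.89, -2.35 and -1.62 in the same order.

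Paralog group 4 marks the most caudal hindbrain and the cord. Hoxa4 was at 1.18, 11.7 and 0.171 CPM in heterozygous 6, 7 and 11 and at 0.118, 0.267 and 0.374 CPM in null 2, 4 and 10. Here the groups overlapped, since heterozygous 11 with 6 counts lay below null 4 with 9 and null 10 with 11. Hoxb4, a factor also known from blood stem cells, was at 0.807, 7.13 and 0.171 CPM against 0.0394, 0.148 and 0.0340 CPM. Hoxc4, the most forward gene of its cluster, was at 1.13, 15.6 and 0.456 CPM against 0.0394, 0.355 and 0.102 CPM. Hoxd4 was at 0.323, 3.20 and 0.0569 CPM against 0.0394, 0.118 and 0.0680 CPM, with 12, 95 and 2 counts in the heterozygous libraries and 1, 4 and 2 in the null libraries. Null libraries lay below all heterozygous libraries for Hoxb4 and Hoxc4 but not for Hoxa4 and Hoxd4. The fitted log2 fold change was -4.04 (SE 1.84) for Hoxa4 and -4.96 (SE 2.01) for Hoxc4, and -1.39 and -2.15 without heterozygous 7.

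Paralog group 5, whose members act in the caudal medulla and the cervical cord, set heterozygous 7 apart most. Hoxa5, needed for the motor neurons that drive the diaphragm, had 25, 1440 and 8 counts in heterozygous 6, 7 and 11 and 0, 18 and 27 counts in null 2, 4 and 10. In CPM that was 0.672, 48.5 and 0.228 against 0, 0.533 and 0.918, and 95.4% of the CPM of the 6 libraries was in heterozygous 7. Null 10 ranked behind heterozygous 7 in this gene, at 0.918 CPM, so heterozygous 7 was 52.8 times the next library. The group means, 16.5 ± 27.7 and 0.484 ± 0.461 CPM (SD, n = 3), thus rest on 1 library. The fitted log2 fold change was -5.01 (SE 2.64), and it was 0.13 without heterozygous 7. Hoxb5 repeated the pattern with 22, 1295 and 3 counts against 0, 6 and 6 counts, or 0.592, 43.6 and 0.0854 CPM against 0, 0.178 and 0.204 CPM. Heterozygous 7 was 73.7 times the next library in Hoxb5. Hoxc5 was at 0.215, 3.80 and 0.0569 CPM against 0.0394, 0.0592 and 0.136 CPM, again with a single high library and groups that overlapped.

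Because paralogs resemble each other, reads could in principle be shared between them. The homeobox, the stretch that encodes the DNA-binding homeodomain, is the part most alike. It was read for all 39 genes from GENCODE M21 transcripts (GRCm38) and spans 180 bases in each. Among all 42 pairs within a paralog group the homeoboxes were 67.22% to 93.89% identical (median 80.56%), and the longest identical run in the transcripts had 50 bases, between Hoxb9 and Hoxc9. How reads that match several genes were counted is not stated in the labels or notes.

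Beyond group 5 reads became scarce outside heterozygous 7. Hoxb6 had 0, 123 and 0 counts in heterozygous 6, 7 and 11 and 0, 0 and 2 counts in null 2, 4 and 10, or 4.14 CPM in heterozygous 7. Hoxb8, a gene of the cord and of immune progenitors, had 2, 92 and 0 counts against 0, 0 and 2, or 3.10 CPM in heterozygous 7. Both genes were detected at 3 counts in heterozygous 7 and in none of the other 5 libraries. The members with fewer reads in groups 6 and 7 had the same high library. Hoxb7 (38 counts), Hoxa6 (22 counts) and Hoxa7 (4 counts) had reads in heterozygous 7 alone, and Hoxc6 had 18 counts there and 3 in null 4. For group 7 as a whole heterozygous 7 was at least 11.96-fold higher than the floor of 3 counts that a library with 0 reads allows.

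At the front of the axis, Hoxd1 of group 1 had 0 to 8 counts. At the caudal end 6 genes of groups 9 to 13 had any read. Hoxa9, Hoxc9 and Hoxc13 had 1 read each over the 6 libraries and Hoxb9 had 0 or 1 per library. Hoxb13 had 0 to 3 counts and Hoxd13 0 to 5, the latter with its 5 in null 10. Hoxd8 of group 8 had 1 to 7 counts in every library, the highest in null 4. Heterozygous 7 was the highest library for 24 of the 27 genes with reads, all but Hoxd8, Hoxd13 and Hoxa9, and for 14 of the 14 genes with at least 10 counts on average. For Hoxb9, Hoxc9, Hoxc13 and Hoxb13 that rests on 1 to 3 counts. It was the highest library for 15.0% of all genes tested.

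**Figure D2:**
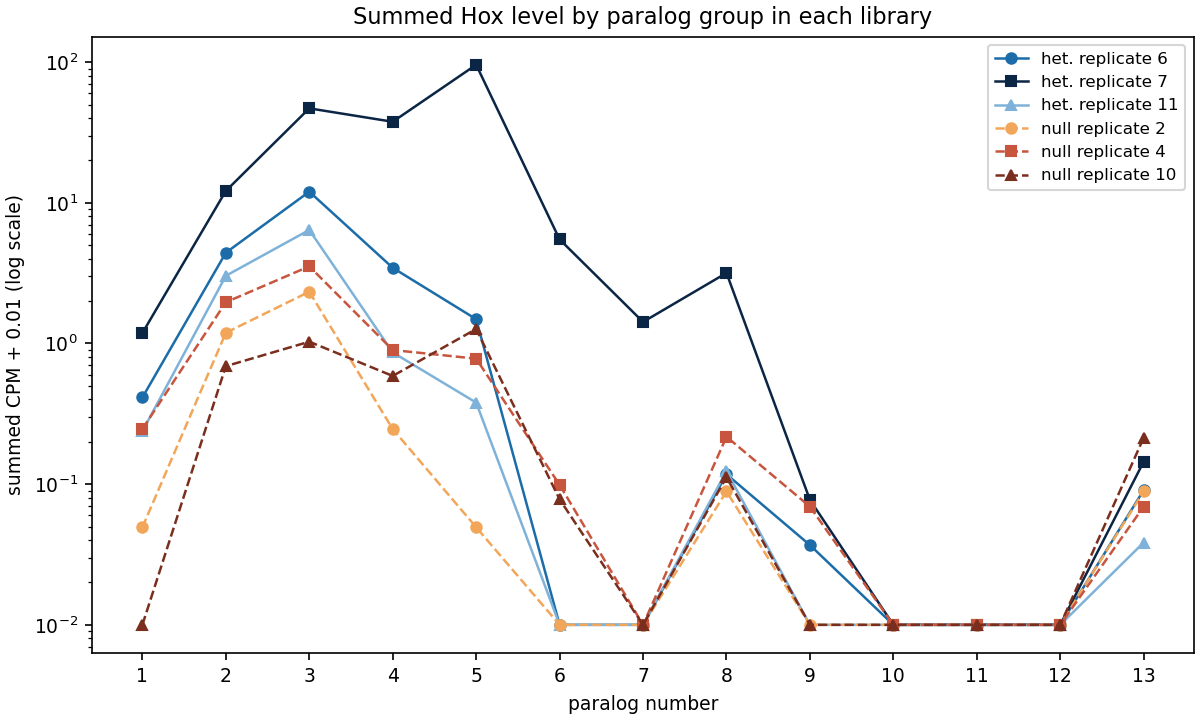
CPM summed over the members of each paralog group (y axis, log scale, 0.01 added so that 0 can be drawn) against paralog number, with 1 line per library. All libraries share a peak at group 3 or group 5, heterozygous 7 lies above the others from group 1 to group 8, with 95.8 CPM in group 5, and groups 10 to 12 have 0 counts in every library.

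Summed over paralogs, the excess of heterozygous 7 over the next library was greater in groups 4 and 5 than in groups 1 to 3. It was 2.92 times for group 1, 2.75 for group 2, 3.91 for group 3, 10.9 for group 4 and 64.8 for group 5, and it was 15.3 times for group 8. The library behind heterozygous 7 was heterozygous 6 in groups 1 to 5 and null 4 in group 8. Group 3 had 12.0, 46.9 and 6.41 CPM in heterozygous 6, 7 and 11 and 2.32, 3.52 and 1.02 CPM in null 2, 4 and 10. Group 5 had 1.48, 95.8 and 0.370 CPM against 0.0394, 0.770 and 1.26 CPM. Null libraries lay below all heterozygous libraries in groups 2 and 3, whereas in group 5 null 4 and null 10 lay above heterozygous 11.

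The extent of detection along the axis followed the order of Hox levels only in part, with null 4 and null 10 ranking higher than by level. Members with at least 3 counts numbered 13, 21 and 13 in heterozygous 6, 7 and 11 and 6, 14 and 11 in null 2, 4 and 10. Heterozygous 7 had the longest list and null 2 the shortest, while null 4 exceeded heterozygous 6 and 11 by 1 gene. With at least 10 counts required the numbers were 12, 18 and 6 against 4, 7 and 4. In cluster A the highest paralog number detected was 5 in heterozygous 6, heterozygous 11, null 4 and null 10, it was 7 in heterozygous 7 and 4 in null 2. In cluster B it was 5 in those same 4 libraries and 3 in null 2. Cluster B of heterozygous 7 was detected without a gap from Hoxb2 to Hoxb8, and Hoxb13 met the limit with exactly 3 counts. In cluster C it was 5 in heterozygous 6, 6 in heterozygous 7, 4 in heterozygous 11, 6 in null 4 and 5 in null 10, and null 2 had no detected member. Cluster D ended at Hoxd4 in heterozygous 6 and 7 and at Hoxd3 in null 2, whereas isolated reads of Hoxd8 (4 counts in heterozygous 11, 7 in null 4) and Hoxd13 (5 counts in null 10) set its end elsewhere.

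The composition of Hox reads also differed between libraries. Paralog groups 5 to 8 supplied 7.23% of Hox counts in heterozygous 6 (exact 95% binomial interval 5.55% to 9.23%), 51.9% in heterozygous 7 (50.6% to 53.2%) and 4.39% in heterozygous 11 (2.58% to 6.94%). In the null libraries they supplied 2.97% in null 2 (0.617% to 8.44%), 13.7% in null 4 (9.77% to 18.4%) and 36.5% in null 10 (27.7% to 46.0%). Heterozygous 7 and null 10 thus had the greatest shares, although null 10 had 42 such counts and heterozygous 7 had 3147. The intervals cover counting error only, and reads without molecular identifiers are not independent molecules. Summed CPM of groups 1 to 4 was 10.2 times higher in heterozygous than in null libraries and 3.64 times without heterozygous 7. For groups 5 to 8 the ratio was 41.3, and 1.19 without heterozygous 7. For groups 9 to 13, with 1 to 6 counts per library, it was 0.842, and 0.509 without heterozygous 7.

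**Figure D3:**
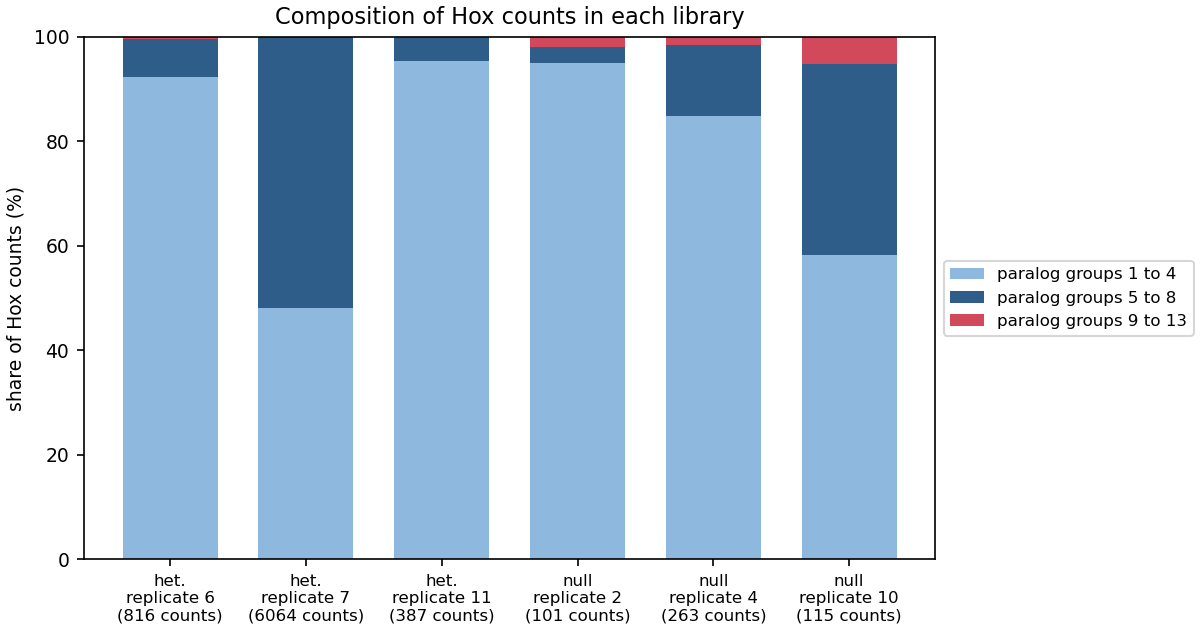
Share of each library's Hox counts (y axis, %) that fell on paralog groups 1 to 4, 5 to 8 and 9 to 13, stacked to 100%; the number of Hox counts is under each bar. Groups 1 to 4 supply 84.8% or more in 4 libraries, and groups 5 to 8 supply 51.9% in heterozygous 7 and 36.5% in null 10.

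Per length of transcript, the order of genes within a library moved backwards along the axis in the same 2 libraries. In CPM per kilobase the leading genes were Hoxb3 (1.65) and Hoxa2 (1.59) in heterozygous 6 and Hoxa2 (0.930) and Hoxb3 (0.926) in heterozygous 11. Hoxa2 (0.444 and 0.818) and Hoxb3 (0.328 and 0.573) also led in null 2 and null 4. In heterozygous 7 Hoxa5 (25.8) and Hoxb5 (23.0) led, followed by Hoxc4 (7.89) and Hoxa4 (7.66). Hoxa5 (0.489) led in null 10 as well, ahead of Hoxa2 (0.268) and Hoxa4 (0.245).

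Levels of the clusters can be compared within a library, a contrast that was not used to choose the genes. The mean CPM per kilobase over all members of each cluster or range of paralog groups was compared in the 6 libraries by exact two-sided sign permutation, with a pseudocount of 0.01 added before taking log2 ratios and 9 comparisons adjusted together by Benjamini-Hochberg. The smallest p that 6 libraries allow is 0.03125, and the libraries mix both genotypes. Cluster A exceeded cluster C in 6 of 6 libraries, by a mean log2 ratio of 2.08 ± 0.21 (SD, n = 6 libraries), 4.22-fold (exact p = 0.03125, adjusted p = 0.046875). Cluster B exceeded cluster C by 1.97 ± 0.40 in 6 of 6 libraries, with the same p. The size of these ratios depends on the pseudocount, since cluster C was at 0.00381 to 0.0720 CPM per kilobase in the libraries other than heterozygous 7. With 0.1 added they were 1.05 for A over C and 1.01 for B over C (exact adjusted p = 0.046875 for each). Both A and B also exceeded D in 6 of 6 libraries, by 1.16 ± 0.67 and 1.05 ± 0.58 (adjusted p = 0.046875 for each in the exact test). Clusters A and B did not differ beyond their spread (0.11 ± 0.48, exact p = 0.71875), with A the higher in 2 of 6 libraries and log2 ratios from -0.37 to 0.93. When members under 3 counts were left out A exceeded B by 0.58 (exact adjusted p = 0.046875). That setting removes more members from A than from B before averaging and so raises the mean of A more. No difference between A and B is read from it. Cluster C lay below cluster D in 5 of 6 libraries (-0.92 ± 0.76, exact adjusted p = 0.0804), heterozygous 7 being the exception, and without division by length the ratio was -1.67 (exact adjusted p = 0.0402). The clusters hold different paralog groups, and cluster C starts at group 4, so these are levels of whole clusters and not of matched genes. Clusters C and D also hold a greater share of the highest paralog numbers, which had few or no reads. Members without reads enter the means as 0. Gene content thus made A and B over C and D likely beforehand, and those p-values say little about the samples. Matched genes varied in order. In CPM per kilobase Hoxc4 exceeded Hoxb4 in every library, whereas Hoxc5 exceeded Hoxb5 only in null 2. In null 2 these orders rest on 0 or 1 count per gene.

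Groups 1 to 4 exceeded groups 9 to 13 in 6 of 6 libraries, by a mean log2 ratio of 4.75 ± 1.79 (SD, n = 6 libraries, exact p = 0.03125, adjusted p = 0.046875). Groups 5 to 8 exceeded groups 9 to 13 by 2.81 ± 2.78, also in 6 of 6 libraries, with the same p, although in null 2 by only 0.09, and by 1.90 when members under 3 counts were left out (exact adjusted p = 0.0804). In null 2 the sign rests on 3 counts against 2. The exact adjusted p of 0.046875, here and for the clusters, depends on how many of the 9 comparisons reach the smallest p, this one included. Genes of high paralog number stay in the cord, trunk and tail, so in hemibrains both directions were likely beforehand. The p-values of these comparisons therefore say little about the samples. Groups 9 to 13 averaged 0.000717 to 0.00767 CPM per kilobase, under the 0.01 added, so the pseudocount largely sets the size of both ratios. With 0.1 added they were 2.30 and 1.30 (exact adjusted p = 0.046875 for each), and as summed CPM without length 6.48 and 3.79 (exact adjusted p = 0.0402 for each). Between groups 1 to 4 and groups 5 to 8 the mean log2 ratio was 1.94 ± 1.70 (exact adjusted p = 0.105). It was positive in 5 of 6 libraries and -0.57 in heterozygous 7, where the more caudal range was the higher. With 5 libraries the smallest exact p is 0.0625, so none of the 9 comparisons can pass once any library is left out.

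All null libraries lay below all heterozygous libraries in CPM for 7 Hox genes (Hoxa2, Hoxa3, Hoxb2, Hoxb3, Hoxb4, Hoxc4 and Hoxd3), 6 of them among the 8 genes that passed the filter. The share over all genes tested was 6.47%. The Hox genes were chosen on this contrast, so nothing is read from how many show it or from the direction of their fold changes. These 7 genes span paralog numbers 2 to 4 and all 4 clusters. All 8 fitted fold changes were negative with a median log2 fold change of -3.37, beside -0.001 over all genes tested. Without heterozygous 7 the median was -1.75 and 7 of 8 were negative, Hoxa5 being the exception.

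Most genes just outside the clusters had levels far more alike between libraries. Of 14 genes that flank the clusters 13 passed the filter, 9 with negative and 4 with positive log2 fold changes (median -0.07), and Cbx5 was at 251 to 317 CPM and Lnp at 58.7 to 71.0 CPM. The homeobox gene Evx1, beyond the caudal end of cluster A, was at 1.08, 3.40 and 1.42 CPM in heterozygous 6, 7 and 11 and at 0.158, 1.36 and 0.986 CPM in null 2, 4 and 10. Evx2, beyond the caudal end of cluster D, was at 1.59, 1.75 and 1.14 CPM against 0.0788, 1.07 and 0.680 CPM, with no overlap between the groups. Evx1 and Evx2, which mark interneurons of the hindbrain and cord, were named after their values were seen.

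The leading non-coding RNAs inside the clusters ordered the libraries much like the coding genes. Hotairm1, a transcript of cluster A, was at 0.753, 2.15 and 0.399 CPM in heterozygous 6, 7 and 11 and at 0.0788, 0.207 and 0.102 CPM in null 2, 4 and 10. Haglr, an antisense transcript of cluster D, was at 1.10, 4.68 and 0.399 CPM against 0.197, 0.178 and 0.0680 CPM. For both the null libraries lay below the heterozygous libraries and heterozygous 7 was the highest. Of 17 such RNAs listed, 16 were in the table and 7 had 0 counts in all libraries, 6 of them microRNA genes (Mir10a, Mir10b, Mir196a-1, Mir196a-2, Mir196b and Mir615) and the seventh Hoxa11os. The microRNA entries are 68 to 110 bases long, and RNAs that short may be missed by these libraries, so their 0 counts do not show absence. Neighbouring transcripts overlap in places: 16 of the 39 Hox genes share exonic bases with another annotated gene in GENCODE M21. Of the exonic bases of Hoxd3, 62.35% are shared on the same strand with Gm28230 or Hoxd4, and of those of Hoxd4, 52.31% with Gm28230 or Hoxd3. On the opposite strand Hoxb3os covers 52.93% of Hoxb3 and 27.32% of Hoxb2. The labels name a strand-specific kit, but no source says whether strand was used in counting, so these genes' counts may hold reads of their neighbours. The deposited lengths differ from these gene models, with 2902 bases against 4191 for Hoxd3 and 3721 against 4251 for Hoxb3. The shares in the annotation that was counted are therefore not known. Hoxa5 and Hoxb4 share no exonic base with another annotated gene.

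The promoters of 4 members are shown as examples because nearly all Hox genes with reads were highest in the same library. RefSeq's table of gene starts (GRCm38.p6) held entries for 22 of the 39 genes, with 24 windows. The windows below hold the 250 bases before a start, written 5′ to 3′ on the gene's strand. Capitals mark a match, on either strand, to TGATNNAT, letters bound by Hox proteins together with Pbx cofactors, or to AGGTCA, the core letters bound by retinoic acid receptors. Hoxa5 is shown although neither motif was found in it. The study's processing notes name the build mm9, so these coordinates are those of the reference and not of the files.
Hoxa2, chr6:52164832-52165081, minus strand: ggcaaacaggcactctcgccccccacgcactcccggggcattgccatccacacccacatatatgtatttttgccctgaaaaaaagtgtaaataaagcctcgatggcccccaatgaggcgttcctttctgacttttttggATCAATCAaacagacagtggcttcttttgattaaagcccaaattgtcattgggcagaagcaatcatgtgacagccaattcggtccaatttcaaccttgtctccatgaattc
Hoxb4, chr11:96318017-96318266, plus strand: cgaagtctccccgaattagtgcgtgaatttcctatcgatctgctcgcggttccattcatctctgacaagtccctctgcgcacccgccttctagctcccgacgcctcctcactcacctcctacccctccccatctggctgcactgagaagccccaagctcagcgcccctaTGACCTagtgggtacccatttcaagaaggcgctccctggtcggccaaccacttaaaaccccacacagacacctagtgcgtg
Hoxd3, chr2:74711743-74711992, plus strand: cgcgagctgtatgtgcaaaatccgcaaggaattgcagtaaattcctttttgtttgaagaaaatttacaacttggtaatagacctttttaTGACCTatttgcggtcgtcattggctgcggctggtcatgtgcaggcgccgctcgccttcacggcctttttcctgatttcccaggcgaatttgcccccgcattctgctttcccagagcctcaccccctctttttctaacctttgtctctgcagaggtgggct
Hoxa5, chr6:52204588-52204837, minus strand: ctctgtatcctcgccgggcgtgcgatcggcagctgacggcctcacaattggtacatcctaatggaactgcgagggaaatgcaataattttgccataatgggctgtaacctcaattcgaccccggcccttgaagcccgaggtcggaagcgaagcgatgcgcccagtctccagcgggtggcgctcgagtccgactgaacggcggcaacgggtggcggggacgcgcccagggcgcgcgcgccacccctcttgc
TGATNNAT was found in 4 of the 24 windows (Hoxa2, Hoxb1, Hoxb8 and Hoxd11), 16.7%, beside 7.68% of all 32851 windows of that length. AGGTCA was found in 6 windows (Hoxb4, Hoxc4, Hoxd3, Hoxd4, Hoxd8 and Hoxd10), 25%, beside 14% of all windows. No window held both motifs. Of the other motifs searched, TATAAA was found in 16.7% of the Hox windows beside 12.4% of all, and TAATTA in 8.33% beside 4.84%, and none of the windows printed here holds either. A match is a description of the letters and not of binding. Median GC content was 58.6% in the Hox windows and 52.4% in all windows, and the median number of CG dinucleotides was 12.5 against 6.

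Cofactors and upstream regulators of Hox genes were compared next, from lists written with earlier results of these data known. Over all 18 lists of genes outside the coding members, 134 genes were tested. The edgeR quasi-likelihood test called 0 of them at an adjusted p under 0.05, against 0.00628% of all genes tested. At an unadjusted p under 0.05 edgeR counted 17 lower and 6 higher, against 7.06% of all genes tested. DESeq2 called 5 lower (Hotairm1, Haglr, Meis1 and Lhx3 among them) and 2 higher (Neurod6 and Tbr1), against 0.402% of all genes tested, and limma-voom called 0.

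The TALE homeodomain proteins bind DNA together with Hox proteins. Of 9 such cofactor genes tested 5 had negative and 4 positive log2 fold changes, with a median of -0.03. Meis2 was at 254 to 347 CPM, with overlapping groups. Meis1 was at 28.6, 39.9 and 30.3 CPM in heterozygous 6, 7 and 11 and at 19.7, 22.0 and 22.4 CPM in null 2, 4 and 10, with no overlap between the groups. It is named because it was the cofactor gene that DESeq2 called lower, and its edgeR log2 fold change was -0.62 (SE 0.14, adjusted p = 0.368).

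Retinoic acid switches on Hox genes of low paralog number in the embryo. Of 13 genes for its synthesis, breakdown and binding 11 were tested, 8 with negative and 3 with positive log2 fold changes (median -0.12). Cyp26b1, which degrades retinoic acid, was at 46.8 to 67.8 CPM, highest in heterozygous 7. Among 6 transcription factors that activate Hox genes in the embryonic hindbrain and tail, Egr2 was at 1.29, 1.28 and 1.14 CPM in heterozygous 6, 7 and 11 and at 1.30, 7.11 and 0.306 CPM in null 2, 4 and 10, with 1 high null library. Cdx2 had 0 counts in all libraries. Of 15 Polycomb and Trithorax genes, whose products keep Hox genes silent or active, 3 had negative and 12 positive log2 fold changes (median 0.09). Among them Kmt2a was at 154 to 219 CPM and Kmt2b at 112 to 160 CPM.

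Genes of neighbouring regions were set beside the Hox genes to see which other tissue moved with them. The 12 listed genes of hindbrain neurons outside the clusters all passed the filter and all had negative log2 fold changes, with a median of -1.16 beside -0.001 over all genes tested, and for 7 of the 12 all null libraries lay below all heterozygous libraries, against 6.47% of all genes tested. They were part of the signal on which the Hox genes were chosen and are no independent evidence of its direction. Their summed level was 55.7, 76.9 and 44.3 CPM in heterozygous 6, 7 and 11 and 11.1, 39.6 and 27.4 CPM in null 2, 4 and 10. Heterozygous 7 was the highest library for 10 of the 12, but its sum was 1.38 times the next library, where the Hox sum was 9.30 times. The noradrenaline transporter gene Slc6a2 was at 10.1, 10.5 and 9.74 CPM against 0.315, 9.30 and 5.78 CPM, and the choline transporter gene Slc5a7 at 8.04, 10.6 and 7.03 CPM against 4.84, 6.63 and 6.02 CPM. Null 2 was the lowest library in both. Cholinergic neurons, which use Slc5a7, also lie in the forebrain, so the sum of this list is not a measure of hindbrain tissue alone.

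Cerebellar and midbrain sums varied less. Cerebellar genes summed to 164, 183 and 147 CPM in heterozygous 6, 7 and 11 and to 104, 134 and 162 CPM in null 2, 4 and 10, with 8 of 9 tested members negative (median -0.47). Cbln1 was at 63.5 to 97.9 CPM and Gdf10 at 17.8 to 27.0 CPM. Midbrain genes summed to 81.3, 66.2 and 83.0 CPM against 36.2, 70.4 and 82.6 CPM, with 8 of 10 negative (median -0.38). The isthmus and cerebellum gene En2 was at 13.9, 11.8 and 16.1 CPM against 0.985, 10.8 and 17.9 CPM, and Otx2 at 15.1 to 22.8 CPM. Null 2 was low in hindbrain, cerebellar and midbrain sums, whereas null 10 was low in the hindbrain sum but not in the cerebellar or midbrain sum. Telencephalic genes ran the other way, with 1030, 965 and 907 CPM against 1422, 1250 and 1248 CPM. All 10 were positive (median 0.40), and for 5 of them all null libraries lay above all heterozygous libraries, against 6.21% of all genes tested.

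Tissues behind the brain were also examined, since Hox genes of groups 5 to 8 are used in the cord and trunk. Spinal cord and motor neuron genes summed to 14.4, 15.1 and 11.2 CPM in heterozygous 6, 7 and 11 and to 5.67, 9.54 and 9.42 CPM in null 2, 4 and 10, with Nkx6-2 at 1.05 to 5.35 CPM and Pax3 at 1.26 to 4.76 CPM. The motor neuron gene Mnx1 had 8 counts in heterozygous 7 and 0 in the other 5 libraries. Ganglion genes summed to 39.7, 69.0 and 40.2 CPM against 16.3, 32.6 and 31.8 CPM. Of the 9 tested, 8 had negative and 1 a positive log2 fold change, with a median of -0.20. The difference between the group sums came largely from Prph, a filament protein of peripheral and brainstem neurons. Prph was at 17.4, 40.2 and 15.2 CPM against 2.40, 8.47 and 5.44 CPM. Pou4f1 overlapped between the groups, at 10.9, 15.1 and 12.0 CPM against 4.96, 12.9 and 15.9 CPM. Muscle genes summed to 10.5, 11.4 and 9.74 CPM in heterozygous 6, 7 and 11 and to 8.74, 9.27 and 8.40 CPM in null 2, 4 and 10. Their sums were higher in every heterozygous library than in every null library, as were the Hox, hindbrain, cord and ganglion sums. For muscle the margin was narrow, with 9.74 CPM in heterozygous 11 against 9.27 CPM in null 4. The 5 muscle genes tested all had negative log2 fold changes (median -0.38), and heterozygous 7 was 1.08 times the next library in the muscle sum. Cartilage genes summed to 23.0 to 26.0 CPM and epidermal genes to 20.6 to 26.5 CPM, with overlapping groups and the highest sum in another library than heterozygous 7. Acta1 was at 5.44 to 6.73 CPM and Myh8 at 0.859 to 1.65 CPM for muscle, Col2a1 at 14.9 to 18.6 CPM and Col9a1 at 3.30 to 3.71 CPM for cartilage, and Krt1 at 11.9 to 17.0 CPM and Krt10 at 6.98 to 8.87 CPM for epidermis.

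Sums for the coverings and fluid spaces of the brain overlapped between the groups. Meningeal genes summed to 151, 364 and 331 CPM in heterozygous 6, 7 and 11 and to 274, 307 and 230 CPM in null 2, 4 and 10, with Col1a1 at 36.7 to 93.9 CPM and Col1a2 at 69.2 to 174 CPM. Choroid plexus genes summed to 564, 839 and 565 CPM against 791, 537 and 680 CPM, with Ttr at 493 to 774 CPM and Aqp1 at 12.7 to 26.1 CPM. Of the erythroid genes Alas2 was at 4.77 to 9.93 CPM, while the globin genes Hba-a1, Hba-a2, Hbb-b1 and Hbb-b2 were listed at 0 in every library. How reads that match several genes were counted is not stated, so these 0 counts do not show absence of globin RNA. Of the 7 erythroid genes only Alas2 passed the filter, and the erythroid sum is nearly that gene alone. Heterozygous 7 had the highest meningeal, choroid plexus and erythroid sums, by 1.10, 1.06 and 1.39 times the next library. The part that any of these tissues had in the Hox levels was not tested.

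**Figure D4:**
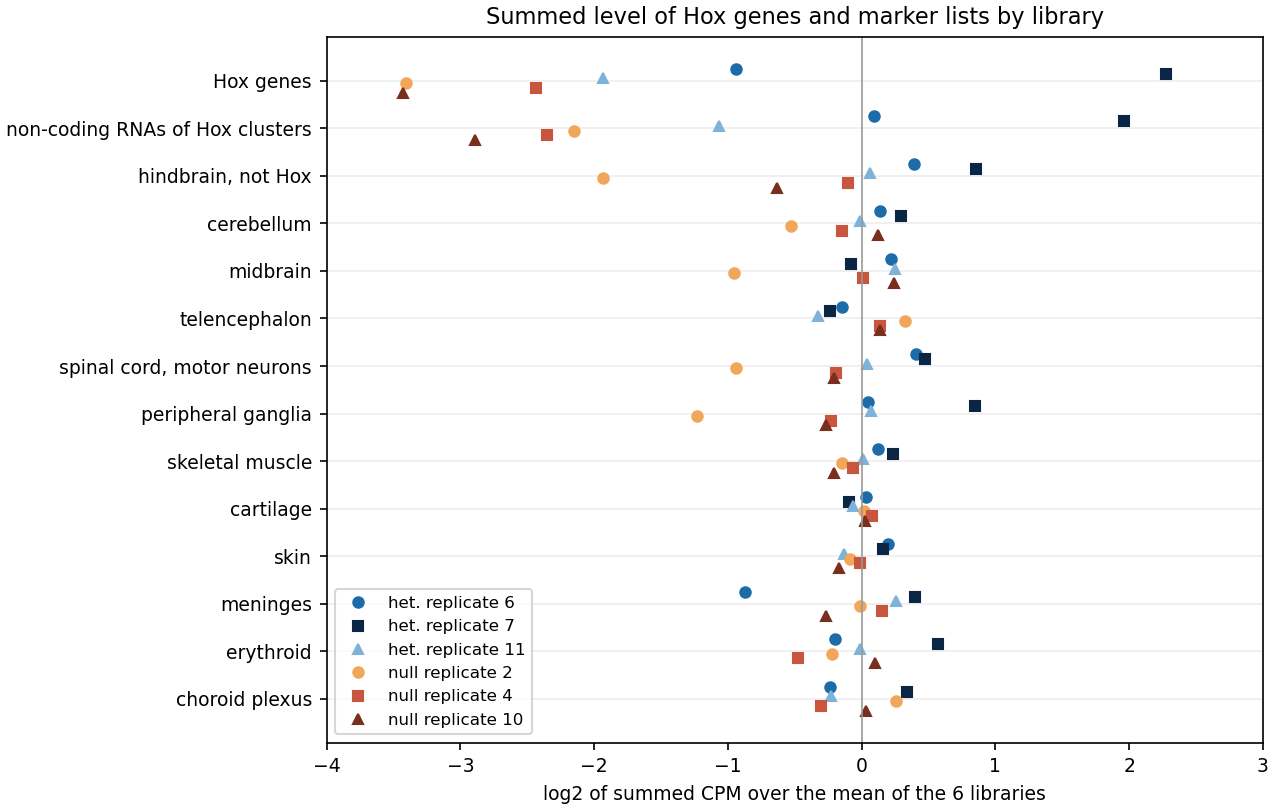
Summed CPM of the Hox genes and of each marker list in each library, as the log2 ratio to the mean of the 6 libraries (x axis). Hox genes span from -3.43 in null 10 to 2.28 in heterozygous 7, the non-coding RNAs of the clusters have a similar spread, and hindbrain genes outside the clusters span from -1.94 in null 2 to 0.86 in heterozygous 7.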

How the data were processed

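The values come from a count table that the authors deposited, with an unnormalized read count for each symbol and library and a gene length in bases. Per the submitters' processing notes, CASAVA, cutadapt, STAR, Picard, bedtools and MACS2 were used in the series with the builds mm9 and hg19, without their roles; how reads were counted, on which annotation and whether by strand, is not given in the sources used here. Per the labels' protocols, a pico-input kit that keeps strand and takes total RNA followed a TRIzol extraction, whereas the design text speaks of poly(A)+ libraries, so the captured RNA is uncertain.

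From the counts, CPM was computed on library totals scaled by TMM factors, and CPM per kilobase on the deposited lengths. The quasi-likelihood test of edgeR 4.0.16 (R 4.3.3, filterByExpr, robust dispersion, Benjamini-Hochberg at 0.05) was fitted to all 6 libraries over 15925 of 24391 symbols. Its common biological coefficient of variation was 13.9%. DESeq2 1.42.0 and limma 3.58.1 (voom) were alternatives. The smallest chi-square per gene between any 2 libraries was 11.2 (heterozygous 11 and null 10), above sampling noise, and all 6 were counted as separate samples. The steps were tested on simulated counts. Nothing in the labels says whether pups shared a litter, so p-values measure the spread between these samples. Exact sign permutation was run with scipy 1.17.1.

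Members and the 18 lists were chosen with earlier results of these data known. Every Hox gene averaging at least 10 counts is given in all libraries, the others by range, along with Celf2 and the 2 genes of highest mean CPM in each list, except for some genes and sequences that are not reported here. Genes outside this rule (Meis1, Evx1, Evx2, Mnx1, Cdx2, Neurod6, Tbr1, Lhx3 and genes at 0) were named after their values were seen.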

Additional observations from a re-analysis of the deposited data

How the results depend on the processing

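No paired analysis was possible because the 2 groups share no replicate number. In the genome-wide edgeR fit 1 gene was called lower and 0 higher. The count of lower genes was 0 with DESeq2 size factors, with a CPM minimum or with limma-voom, 2 with upper-quartile factors, library size alone or no low-count filter, and 25 with DESeq2. The count of higher genes was 1 with no low-count filter and 39 with DESeq2. Leaving out single libraries gave 0 to 1 lower and 0 to 3 higher. The median log2 fold change of the tested Hox genes lay between -4.19 and -1.75 when single libraries were left out, and the ratio of summed Hox CPM, heterozygous over null, between 3.15 and 21.6, and both were closest to no difference without heterozygous 7. Without heterozygous 7 the log2 fold change of Hoxa5 reversed to 0.13 (-5.76 to 0.13 over the libraries left out in turn), and those of the other 7 fitted genes lay between -2.35 and -1.29. Other scalings left the ratio between 14.6 and 15.8. Within libraries, cluster A exceeded cluster B by 0.58 (exact adjusted p = 0.046875) when members under 3 counts were dropped, the ratio reversed to -0.17 without division by length, and it reversed to -0.0551 without null 10. Dropping members under 3 counts takes more from A than from B, so no difference between them is read from the 0.58. Cluster C lay below D by a log2 ratio of -1.67 without division by length (exact adjusted p = 0.0402). Groups 5 to 8 exceeded groups 9 to 13 by 1.90 when members under 3 counts were dropped (exact adjusted p = 0.0804). With a pseudocount of 0.1 in place of 0.01 the log2 ratios shrank to 1.05 for A over C, 0.74 for A over D, 1.01 for B over C, 0.71 for B over D, 2.30 for groups 1 to 4 over 9 to 13 and 1.30 for groups 5 to 8 over 9 to 13 (exact adjusted p = 0.046875 for each). These directions were likely beforehand, so their p-values say little about the samples. Leaving out single libraries gave log2 ratios of -0.0551 to 0.20 for A over B, 2.02 to 2.14 for A over C, 0.98 to 1.30 for A over D, 1.88 to 2.08 for B over C, 0.82 to 1.14 for B over D, 4.18 to 5.18 for groups 1 to 4 over 9 to 13 and 1.73 to 3.36 for groups 5 to 8 over 9 to 13; 5 libraries cannot reach an adjusted p under 0.05. The number of Hox genes detected was 6 in heterozygous 11, 7 in null 4 and 4 in null 10 at 10 counts or more, and 13 in null 2 and 17 in null 10 at 1 count or more. Low counts limit precision in all libraries but most where Hox levels were low, with 101 to 263 Hox counts in the null libraries. The cause of these shifts was not tested.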
